A study of Homo sapiens with 12 samples.

Results

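The genes described here are 8 pluripotency genes, POU5F1, TDGF1, PRDM14, UTF1, VRTN, USP44, DPPA4 and APELA, followed through neural differentiation of human embryonic stem cells with and without an inhibitor of the deubiquitinase USP7. They were taken by name from a table of 13310 genes, and all 8 were found. They were chosen by their levels in the undifferentiated and the untreated neural libraries, for being lost from one to the other, so this fall is described below and not tested.

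Pluripotent cells hold themselves in an undifferentiated state through a network of transcription factors in which OCT4, the product of POU5F1, binds DNA together with SOX2. The network is fed by growth factor signals, among them NODAL and activin acting through SMAD proteins, and it shuts down as cells commit to a germ layer. Blocking both branches of SMAD signalling is the usual way to turn pluripotent cells into neural ectoderm, and loss of OCT4 is the standard sign that cells have left pluripotency.

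H9 is an established human embryonic stem cell line, and the labels give every library here the wild-type genotype. The title of the deposited table names a USP7 heterozygote instead, and the labels were followed. UNDIF libraries were from cells kept in stem cell medium, and NEUR libraries from cells taken to neural progenitors with dual SMAD inhibitors and then a neural stem cell medium containing EGF and bFGF. DMSO_NEUR and FT671_NEUR libraries were from the same differentiation with the solvent DMSO or with the USP7 inhibitor FT671, whose dose and duration are not in the labels. Each of the 4 groups had 3 replicates, and no label tells whether these came from separate cultures. A p-value here therefore speaks of the spread among libraries, which may be technical.

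Polyadenylated RNA was sequenced, with 15906471 to 17271155 reads per library assigned to the tabulated genes. Values below are normalized read counts, that is, reads divided by the size factor of the library. The DMSO_NEUR samples carry an undifferentiated treatment label, but their titles say neural and their levels of the 14 measured neural progenitor markers added up to 52105 to 53727, against 49592 to 51309 in NEUR and 21854 to 24728 in UNDIF. NES took the largest part of these sums, at 27738 counts in DMSO_NEUR. By limma 8 of the 14 markers were higher and 5 lower in DMSO_NEUR than in UNDIF, and 8 were higher and 6 lower in NEUR than in UNDIF. The FT671_NEUR libraries summed to only 13488 to 14168 for those markers. PAX6, a defining neural progenitor gene, was at 13.0 ± 4.42 (SD, n = 3) in FT671_NEUR and 3985 ± 250 in DMSO_NEUR, while FABP7, with 506 ± 6.71 counts in UNDIF, 16.4 ± 2.49 in NEUR and 18.5 ± 5.08 in DMSO_NEUR, had no read in FT671_NEUR. Of the 14 markers 12 were lower and 1 higher with FT671 than with DMSO by limma, so the name FT671_NEUR is used here as the title gives it. The 11 measured markers of surface ectoderm and trophoblast summed to 131236 to 145705 in FT671_NEUR and 34559 to 36498 in DMSO_NEUR. Their sums were 43124 to 53471 in NEUR and 6620 to 7256 in UNDIF. KRT8 took the largest part of these sums, at 87412 counts in FT671_NEUR and 26117 in DMSO_NEUR. By limma all 11 were higher with FT671 than with DMSO, where 40.2% of all genes were. What part these marker differences have in the results for the 8 genes was not tested.

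The RefSeq promoter table (GRCh38.p14) matched 5 of the 8 genes, with TDGF1 listed under its newer symbol CRIPTO. The 250 bases before the start of transcription are printed for 4 genes whose transcripts nearly vanished (TDGF1, UTF1, VRTN and APELA) and for DPPA4, which kept a larger share. They are written 5′ to 3′ along the gene, with capitals marking a SOX core (CATTGT), a GC box (GGGCGG) or a CCAAT box (CCAAT) on either strand.
TDGF1, second start, plus strand, chr3:46577538-46577787: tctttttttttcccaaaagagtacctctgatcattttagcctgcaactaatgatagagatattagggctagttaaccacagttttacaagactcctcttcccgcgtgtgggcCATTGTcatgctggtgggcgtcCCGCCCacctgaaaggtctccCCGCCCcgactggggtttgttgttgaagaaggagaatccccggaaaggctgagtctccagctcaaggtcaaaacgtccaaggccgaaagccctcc
UTF1, plus strand, chr10:133229967-133230216: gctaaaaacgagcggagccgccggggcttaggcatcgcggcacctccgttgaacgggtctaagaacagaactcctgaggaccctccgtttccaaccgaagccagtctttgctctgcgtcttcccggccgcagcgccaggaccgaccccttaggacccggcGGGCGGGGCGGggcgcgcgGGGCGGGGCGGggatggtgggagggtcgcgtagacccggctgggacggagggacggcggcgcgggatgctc
VRTN, plus strand, chr14:74348221-74348470: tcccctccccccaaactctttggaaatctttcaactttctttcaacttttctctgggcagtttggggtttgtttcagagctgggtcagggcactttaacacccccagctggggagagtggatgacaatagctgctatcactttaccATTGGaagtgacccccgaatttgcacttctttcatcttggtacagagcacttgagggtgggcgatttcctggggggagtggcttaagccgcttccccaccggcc
APELA, plus strand, chr4:164876928-164877177: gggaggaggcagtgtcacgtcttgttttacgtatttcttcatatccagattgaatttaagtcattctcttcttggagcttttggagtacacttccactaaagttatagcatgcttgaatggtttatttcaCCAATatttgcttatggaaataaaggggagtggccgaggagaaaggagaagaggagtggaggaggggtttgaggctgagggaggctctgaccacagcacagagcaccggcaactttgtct
DPPA4, minus strand, chr3:109337547-109337796: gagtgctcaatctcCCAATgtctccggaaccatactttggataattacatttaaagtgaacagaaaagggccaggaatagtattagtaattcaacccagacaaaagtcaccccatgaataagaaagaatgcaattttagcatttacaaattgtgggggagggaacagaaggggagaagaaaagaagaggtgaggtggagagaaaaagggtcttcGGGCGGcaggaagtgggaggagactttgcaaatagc
The UTF1 window was made up of G and C to 70.8% and held 32 CpG dinucleotides, more than 90.5% of all 35116 promoter windows of this length, whose medians were 58.0% and 11. It also held 4 GC boxes, where 42.6% of all windows held at least 1. The other windows lay below the median for G and C, from 43.2% for DPPA4 to 52.0% for VRTN. APELA, VRTN and DPPA4 each held 1 CCAAT box, a pentamer found in 32% of windows, and DPPA4 also held 1 GC box. The window of the first TDGF1 start, not printed, likewise held 1 CCAAT box and 1 GC box. The second TDGF1 window held the SOX core with its first base 138 bases before the start, a motif in 9.29% of windows, and 2 GC boxes. None of these windows, nor that of the first TDGF1 start (chr3:46574285-46574534), held the octamer ATGCAAAT that OCT4 can bind (1.63% of windows) or TATAAA (10.7%). These matches are letters only, and none of the motifs was found in all 4 of the printed genes that nearly vanished.

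In undifferentiated cells all 8 transcripts were plainly present, at levels that differed among them. Per kilobase of annotated exon (GENCODE v29), DPPA4 was highest at 1095 ± 65.4 normalized counts, followed by POU5F1 at 849 ± 59.5, APELA at 784 ± 132 and VRTN at 658 ± 40.7. USP44 was at 423 ± 30.1 per kilobase, TDGF1 at 226 ± 17.5, PRDM14 at 193 ± 20.6 and UTF1 at 134 ± 43.8. On this scale the UNDIF libraries of POU5F1 and APELA overlapped, as did those of APELA and VRTN, of TDGF1 and PRDM14, and of PRDM14 and UTF1. The other neighbours in the order did not overlap.

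**Figure D1:**
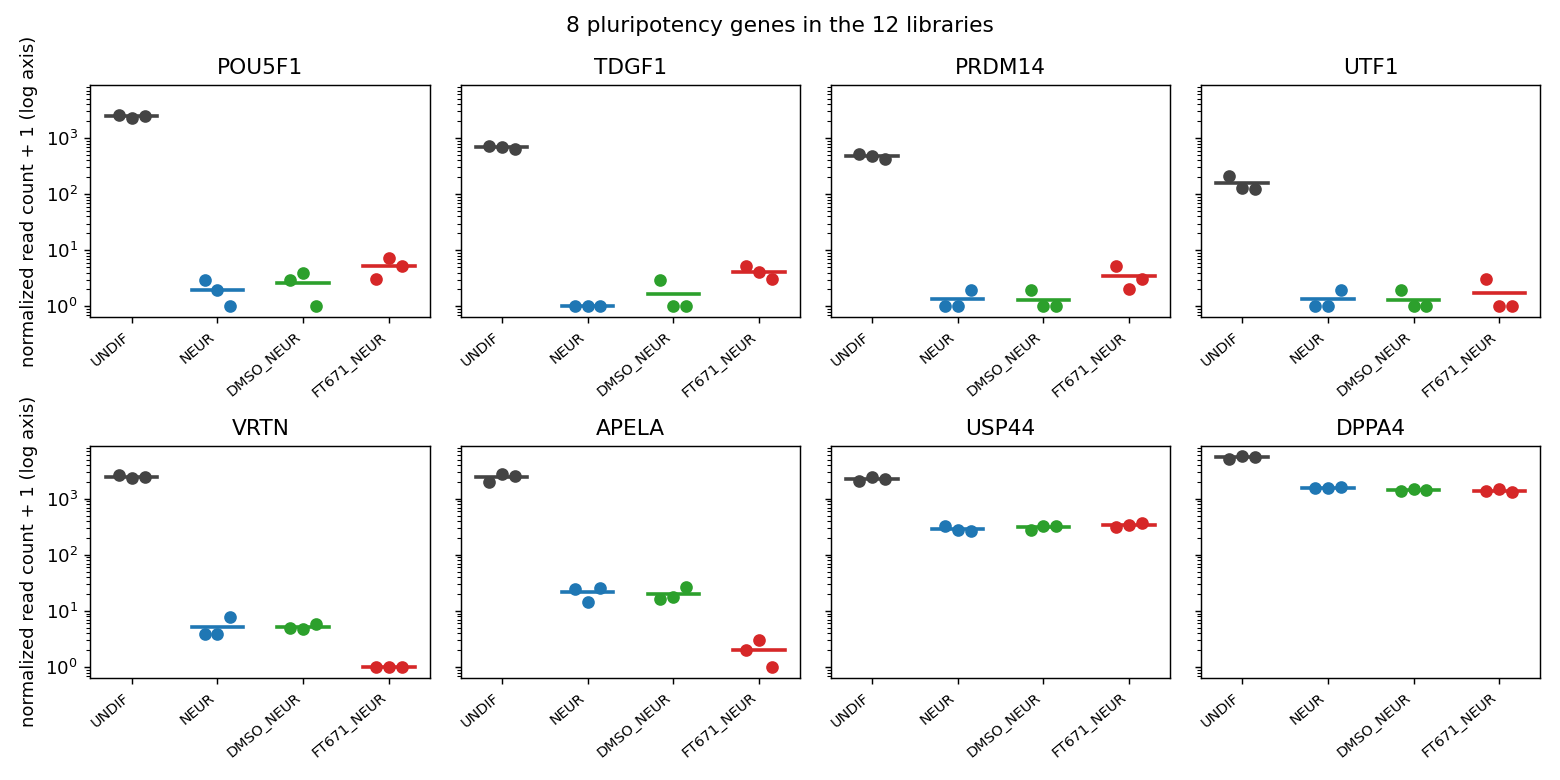
Normalized read count plus 1 (log axis) of each of the 8 genes in the 12 libraries, 1 panel a gene, with a point for each library and a bar at the group mean. UNDIF libraries stand far above the rest for 6 genes, while USP44 and DPPA4 stay far above the other genes in all differentiated groups; with FT671, VRTN has 0 reads and APELA at most 2 in a library.

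Differentiation left the 8 genes at very different levels. In NEUR, 6 of them were under 1% of their UNDIF mean and USP44 and DPPA4 were not. The same 6 were under 1% in DMSO_NEUR and in FT671_NEUR as well. Over all 13310 genes, 0.601% were under 1% in NEUR, 0.759% in DMSO_NEUR, 1.39% in FT671_NEUR and 0.376% in all 3 groups. Between NEUR and UNDIF limma called 82% of all genes. The genes were picked for this fall, so nothing is read from these shares. In RNA from a whole culture, fewer cells that carry a transcript and less transcript per cell cannot be told apart.

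POU5F1 (ENSG00000204531) encodes OCT4. Its counts were 2624, 2281 and 2472 in the UNDIF libraries, 1.96, 0.978 and 0 in NEUR, 1.94, 2.91 and 0 in DMSO_NEUR, and 2.12, 6.31 and 4.25 in FT671_NEUR. All differentiated libraries lay far below all undifferentiated ones, and every differentiated value was a handful of reads. The UNDIF mean of 2459 ± 172 was 2498 times the NEUR mean of 0.978 ± 0.978, with a 95% counting interval of 854 to 12115. Such intervals, and the floor of 3 reads over a group used below, cover counting error only. Beside DMSO_NEUR the ratio was 1516, and beside FT671_NEUR it was 581 (interval 332 to 1125). In GENCODE v29 the POU5F1 exons share 248 bases with TCF19 on the opposite strand, and whether reads were counted by strand is not given in the sources used here.

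TDGF1 (ENSG00000241186) encodes CRIPTO, a membrane-anchored co-receptor through which NODAL signals. It had 733, 681 and 627 counts in UNDIF and no read in any NEUR library. In DMSO_NEUR 1 library had 1.94 counts and the others 0, and in FT671_NEUR the values were 4.24, 3.16 and 2.12. The lowest FT671 library and the highest DMSO library each had 2 reads, so the groups are apart only through the size factors. UNDIF was at least 691-fold above NEUR, taking the floor of 3 reads over the group for NEUR, and 214-fold above FT671_NEUR (interval 113 to 469). TDGF1P3, a pseudogene copy in the same table, had 61.5 ± 6.37 counts in UNDIF and under 1 in each differentiated group, so the split of reads between the copies is uncertain. The exons of TDGF1 also overlap LRRC2 by 110 bases on the opposite strand and AC104304.1 by 45 bases on its own strand.

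PRDM14 (ENSG00000147596), a zinc finger repressor that sustains POU5F1 expression in human embryonic stem cells, had 520, 475 and 420 counts in UNDIF. It had 1 read over the NEUR libraries, 1 over the DMSO_NEUR libraries, and 4.24, 1.05 and 2.12 counts in FT671_NEUR. UNDIF was 1437 times NEUR, though with 1 read the interval ran from 258 to 56806, and 191 times FT671_NEUR (interval 92.5 to 476). UTF1 (ENSG00000171794), a chromatin-associated protein of undifferentiated cells, was the least abundant of the 8 and the most uneven in UNDIF, with 213, 129 and 123 counts. Replicate 1 of UNDIF was the highest undifferentiated library for UTF1, POU5F1, TDGF1, PRDM14 and VRTN, and the lowest for APELA, USP44 and DPPA4. UTF1 had 1 read over NEUR, 1 over DMSO_NEUR and 2 over FT671_NEUR, all under the floor.

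VRTN (ENSG00000133980), whose product vertnin is best known from pigs, where its variants go with vertebral number, had 2631, 2345 and 2400 counts in UNDIF. It had 2.93, 2.94 and 6.97 counts in NEUR, 3.89, 3.87 and 4.89 in DMSO_NEUR, and 0 in all 3 FT671_NEUR libraries. The NEUR and DMSO_NEUR libraries overlapped, and each of them held at least 3 reads. UNDIF was 576 times NEUR (interval 337 to 1083) and at least 2324-fold above FT671_NEUR.

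APELA (ENSG00000248329) encodes ELABELA, a short secreted peptide that binds the apelin receptor and that human embryonic stem cells make to support their own growth. Its counts were 1977, 2780 and 2505 in UNDIF, 23.5, 13.7 and 24.9 in NEUR, 15.6, 16.5 and 25.4 in DMSO_NEUR, and 1.06, 2.10 and 0 in FT671_NEUR. After VRTN it was the member with the lowest share left with FT671, 0.0436% ± 0.0435 of the UNDIF mean, against 0.791% ± 0.225 with DMSO and 0.855% ± 0.252 without either. UNDIF was 117 times NEUR (interval 91.6 to 153) and 2291 times FT671_NEUR (interval 784 to 11112).

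USP44 (ENSG00000136014), a deubiquitinase that acts on histone H2B and on the spindle checkpoint, was only partly lost. Its counts were 2111, 2434 and 2291 in UNDIF, 329.5, 277.9 and 264.0 in NEUR, 274.2, 320.6 and 333.2 in DMSO_NEUR, and 316.8, 334.6 and 370.5 in FT671_NEUR. The 3 differentiated groups overlapped one another, at 12.7% ± 1.52, 13.6% ± 1.36 and 14.9% ± 1.20 of the UNDIF mean. DPPA4 (ENSG00000121570), a chromatin protein of early embryos and pluripotent cells, kept the largest share. It had 5109, 5741 and 5568 counts in UNDIF, 1570.4, 1550 and 1621 in NEUR, 1380, 1466 and 1446 in DMSO_NEUR, and 1350, 1477 and 1314 in FT671_NEUR. These are 28.9% ± 0.667, 26.1% ± 0.826 and 25.2% ± 1.56 of its UNDIF mean, a 3.47-fold difference for NEUR beside a 7.84-fold one for USP44.

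**Figure D2:**
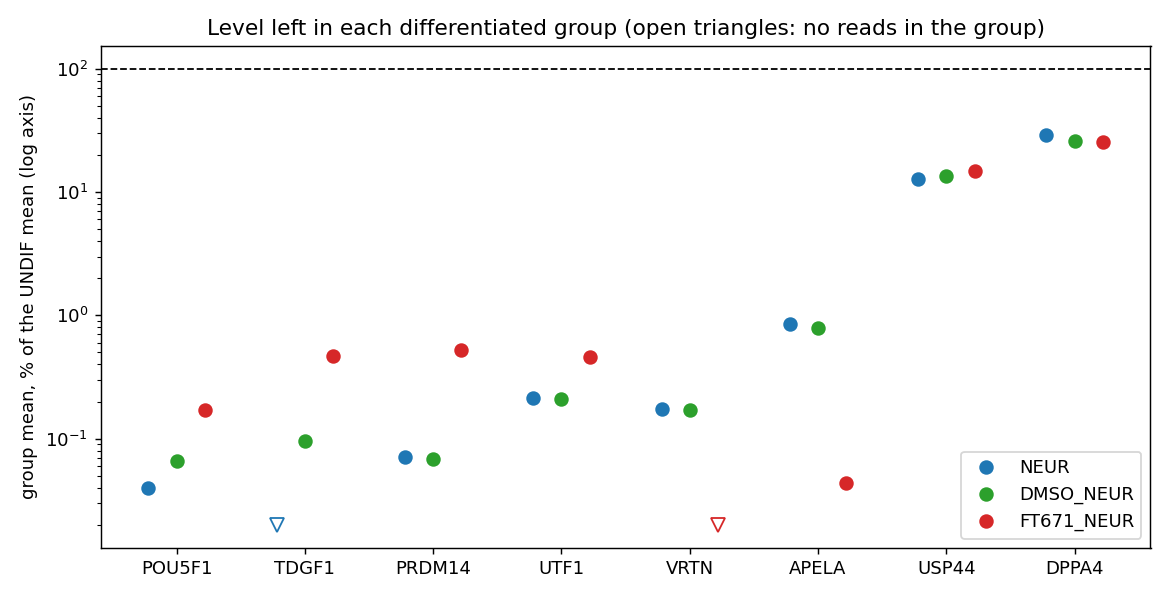
Mean of each differentiated group as a percentage of the UNDIF mean (log axis; the dashed line is 100%), for each of the 8 genes, with open triangles where the group has no read. USP44 and DPPA4 stand between 12.7% and 28.9%, the other 6 genes stand below 1%, and FT671_NEUR is the highest point for POU5F1, TDGF1, PRDM14 and UTF1 but the lowest for VRTN and APELA.

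The comparison of FT671_NEUR with DMSO_NEUR asks whether inhibiting USP7 changed what was left of the pluripotency programme. The fall for which the genes were chosen lies between other libraries, but the genes were proposed with results of these data known. Lost genes that were high with FT671, such as L1TD1 and ZFP42 below, are not among the 8. The comparison is therefore not independent of the choice of genes. The calls went in both directions: VRTN and APELA were lower with FT671, TDGF1, PRDM14 and POU5F1 were higher on a few reads each, and UTF1, USP44 and DPPA4 were not called. In limma 5 of the 8 passed an adjusted p of 0.05, 3 higher and 2 lower, where 79.8% of all genes passed, 40.2% higher and 39.7% lower. In 4 of the 8 the groups did not overlap, where 84.7% of all genes did not, so the share of called genes is no result about these 8. For TDGF1 and PRDM14 the nearest libraries of the groups held the same number of reads and are apart only by their size factors. With library totals in place of the authors' size factors the split was 2 higher and 3 lower, POU5F1 losing its call and DPPA4 gaining one.

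APELA fell 18.1-fold, from 19.1 ± 5.44 counts with DMSO to 1.05 ± 1.05 with FT671 (interval 5.89 to 90.2; limma log2 fold change −3.41 ± 0.34 SE, adjusted p = 9.95e-08). VRTN fell from 4.22 ± 0.580 counts to 0, and its limma value was −2.38 ± 0.30 (adjusted p = 1.40e-06). With FT671_NEUR set at 3 reads its fall was at least 3.99-fold, a bound that leaves out the counting error of the DMSO reads. Folds from limma are on the log2 scale of the count plus 1, which understates the change of genes this low. Both genes were already below 1% of their UNDIF level with DMSO, so these falls are from a small remainder to a smaller one, 59 reads to 3 over the group for APELA and 13 to 0 for VRTN. Both calls held under all 24 alternative settings, with log2 fold changes of −4.18 to −1.99 for APELA and −5.14 to −0.88 for VRTN.

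TDGF1 was 4.89 times as high with FT671 (3.17 ± 1.06 counts against 0.648 ± 1.12), from 9 reads against 2, with a counting interval of 1.01 to 46.5. Its limma log2 fold change was 1.51 ± 0.42 (adjusted p = 0.00369), and the call was lost in DESeq2 (adjusted p = 0.0543). PRDM14 was 7.61 times as high, from 7 reads against 1, with an interval of 0.978 to 343 that includes 1 (limma 1.36 ± 0.45, adjusted p = 0.0109). Without FT671_NEUR replicate 1 its limma adjusted p was 0.0636. These rises leave both genes at 0.466% ± 0.155 and 0.524% ± 0.344 of their UNDIF level.

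POU5F1 had 4.23 ± 2.10 counts with FT671 and 1.62 ± 1.48 with DMSO, 12 reads against 5, and the libraries of the groups overlapped. The ratio of 2.61 had a counting interval of 0.856 to 9.46, which includes 1. The limma call (log2 fold change 1.13 ± 0.48, adjusted p = 0.0406) was lost in 13 of 24 alternatives, edgeR (0.0963) and DESeq2 (0.0895) among them. Without DMSO_NEUR replicate 3, the library with no POU5F1 read, the value was 0.54 with a limma adjusted p of 0.260, and without FT671_NEUR replicate 2 it was 0.84 with an adjusted p of 0.156. For UTF1 the groups had 2 reads and 1 read, and no difference was detectable at this depth.

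USP44 and DPPA4 are the members with enough reads for a narrow interval. USP44 had 340.7 ± 27.4 counts with FT671 and 309.3 ± 31.1 with DMSO (limma log2 fold change 0.14 ± 0.10, 95% interval −0.08 to 0.36, adjusted p = 0.223). DPPA4 had 1381 ± 85.6 and 1431 ± 45.2 (−0.05 ± 0.07, interval −0.19 to 0.09, limma adjusted p = 0.474). For both genes these intervals leave out a 2-fold change in either direction, log2 values of 1 and −1. DPPA4 was called lower only when library totals were used for scaling (−0.17, limma adjusted p = 0.0312), a scaling that moved the median of all genes from 0.01 to −0.11.

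**Figure D3:**
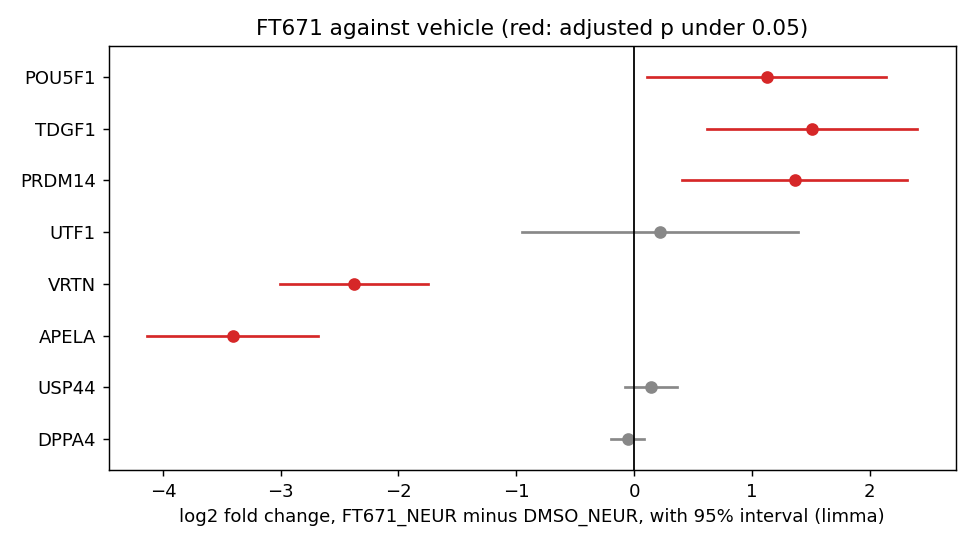
Log2 fold change (limma, on the count plus 1) between FT671_NEUR and DMSO_NEUR for each of the 8 genes, with its 95% interval; red marks an adjusted p under 0.05. POU5F1, TDGF1 and PRDM14 lie between 1.13 and 1.51, VRTN and APELA at −2.38 and −3.41, and the intervals of USP44 and DPPA4 are the narrowest; the UTF1 value rests on 3 reads.

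The solvent was compared with no treatment to see whether DMSO itself went with a difference. None of the 8 genes was called between DMSO_NEUR and NEUR by limma, edgeR or DESeq2, where limma called 0.398% of all genes. DPPA4 alone had an unadjusted limma p under 0.05, at 0.0471, with a log2 fold change of −0.14 ± 0.07 and an adjusted p of 0.622. Its 3 DMSO libraries were all below its 3 NEUR libraries, as was the case in one direction or the other for 12.3% of all genes. USP44 differed by 0.09 ± 0.10 (limma adjusted p = 0.810) and APELA by −0.10 ± 0.34 (limma adjusted p = 0.948).

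Other genes of the pluripotent state gave a wider view of the same cultures. The list was written with earlier results known, and 27 of its 40 genes were in the table. Between NEUR and UNDIF 25 of the 27 were lower and 1 higher by limma, where 41.6% and 40.4% of all genes were. Their median log2 fold change was −2.31, beside −0.03 for all genes. Between FT671_NEUR and DMSO_NEUR 11 rose and 12 fell, shares close to those of all genes, and their median was 0.10 beside 0.01. Between DMSO_NEUR and NEUR 4 of the 27 were lower and 0 higher by limma, where 0.398% of all genes were called in either direction. Setting genes without reads at their bound moves none of the list medians given here.

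SOX2, the DNA-binding partner of OCT4, was among the genes that fell with FT671. It had 9263 ± 1307 counts in UNDIF, 1335 ± 64.0 in NEUR, 1585 ± 134 in DMSO_NEUR and 13.0 ± 3.96 in FT671_NEUR, a 121-fold fall with FT671 (limma log2 fold change −6.86 ± 0.16, adjusted p = 8.18e-16). SOX2 also marks neural progenitors, which keep it after OCT4 is gone. LIN28A, an RNA-binding protein that blocks let-7 microRNAs, fell with FT671 from 8861 ± 626 to 1097 ± 152 counts (limma −3.02 ± 0.09, adjusted p = 1.05e-14).

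L1TD1, an RNA-binding protein of human embryonic stem cells, went the other way. Its counts were 3326, 3777 and 3186 in UNDIF, 110.5, 103.7 and 83.7 in NEUR, 57.4, 90.1 and 75.2 in DMSO_NEUR, and 2580, 2856 and 2058 in FT671_NEUR. The FT671 libraries held 72.8% of the UNDIF mean, and the limma log2 fold change against DMSO_NEUR was 5.06 ± 0.15 (adjusted p = 1.69e-14). ZFP42, which encodes REX1, was at 848.0 ± 37.4 counts with FT671 and 112.9 ± 11.5 with DMSO (limma 2.90 ± 0.09, adjusted p = 4.20e-14). It had 1926 ± 47.8 counts in UNDIF and 170.9 ± 13.3 in NEUR. ZFP42 was lower in DMSO_NEUR than in NEUR (limma −0.60 ± 0.09, adjusted p = 0.00799). FOXD3 had no read in NEUR or DMSO_NEUR and 21.5 ± 5.89 counts with FT671, at least 22.1-fold higher. DNMT3B, a DNA methyltransferase that is high in pluripotent cells, was at 521 ± 37.5 and 517 ± 15.9 counts with DMSO and FT671, from 8692 ± 59.7 in UNDIF (limma adjusted p = 0.929). The list also holds genes of epithelial adhesion. CDH1, which encodes E-cadherin, rose from 918 ± 90.1 counts with DMSO to 14810 ± 704 with FT671 (limma 4.01 ± 0.08, adjusted p = 1.66e-16). Its FT671 level was above its 3994 ± 95.7 in UNDIF and 1423 ± 144 in NEUR. CDH1 was also lower in DMSO_NEUR than in NEUR (limma −0.63 ± 0.08, adjusted p = 0.00112).

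**Figure D4:**
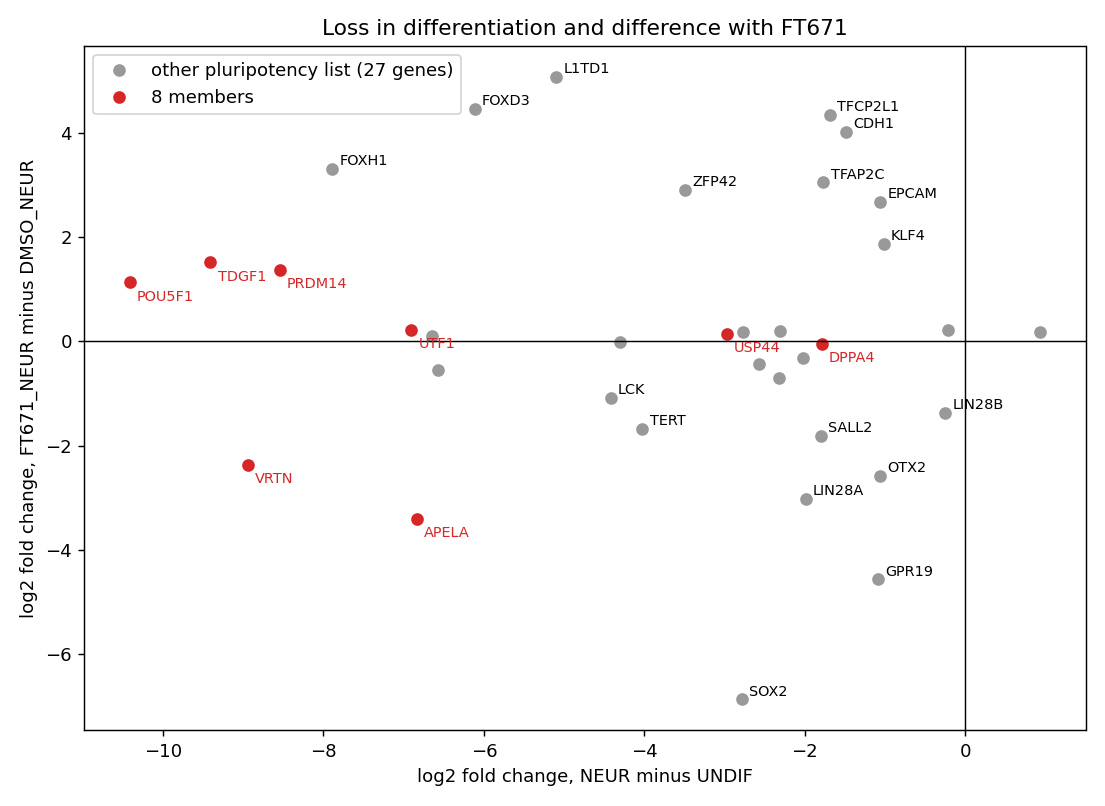
Log2 fold change NEUR minus UNDIF (horizontal axis) against log2 fold change FT671_NEUR minus DMSO_NEUR (vertical axis), both from limma on the count plus 1, for the 8 genes (red) and the 27 other pluripotency genes (grey, named where the vertical value is above 1 or below −1). The comparisons share no library; genes lost to a similar extent, such as VRTN and PRDM14, lie at different heights, and values of genes with under 10 counts in a group depend on the added 1.

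TDGF1 acts in NODAL signalling, and 14 of 23 listed genes of that pathway were tested. With FT671 8 rose and 4 fell, where 40.2% of all genes rose and 39.7% fell, and the median was 0.48. ACVR1C, the receptor ALK7 that binds NODAL, rose from 7.46 ± 1.16 counts with DMSO to 83.9 ± 12.0 with FT671 and had 79.4 ± 6.65 in UNDIF (limma log2 fold change against DMSO 3.33 ± 0.36, adjusted p = 2.57e-07). FOXH1, the SMAD partner that carries NODAL signals to DNA and a gene of the pluripotency list as well, rose from 1.30 ± 0.556 to 21.5 ± 3.42 counts, 3.69% of its UNDIF level of 583 ± 65.7 (limma 3.31 ± 0.43, adjusted p = 2.18e-06). INHBA, which encodes an activin subunit, rose from 29.2 ± 6.19 to 171 ± 20.9 (limma 2.52 ± 0.37, adjusted p = 1.03e-05). Unlike ACVR1C and FOXH1, INHBA was lowest in UNDIF, at 4.09 ± 2.73 counts, and had 39.3 ± 10.1 in NEUR. The receptor gene ACVR2B and SMAD3 fell, by 0.89 each on the log2 scale (limma, adjusted p = 2.22e-07 and 4.32e-08).

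APELA shares its receptor with apelin, and all 7 listed genes of that system were tested. APLN, which encodes apelin, was the reverse of APELA in differentiation: it had 73.0 ± 24.4 counts in UNDIF and 10997 ± 525 in NEUR (limma log2 fold change 7.27 ± 0.17, adjusted p = 5.58e-16). With FT671 both ligands were lower, APLN falling from 11684 ± 962 to 280.6 ± 28.7 counts (limma −5.38 ± 0.17, adjusted p = 2.26e-14). The receptor gene APLNR had 66.9 ± 5.55 counts in UNDIF, 5.92 ± 2.64 in NEUR, 4.86 ± 3.34 in DMSO_NEUR and 1 read over the FT671_NEUR libraries (limma −2.06 ± 0.46 with FT671, adjusted p = 6.72e-04). In all, 2 of the 7 rose and 3 fell with FT671, beside the same shares of all genes, and the median was −0.84.

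Relatives of the other members were also followed, again beside 40.2% of all genes higher and 39.7% lower with FT671. Among 7 POU factors other than POU5F1, 1 rose and 5 fell with FT671. POU2F3, a factor of tuft and other epithelial cells, rose from 4.22 ± 2.47 to 183 ± 25.7 counts (limma 5.24 ± 0.32, adjusted p = 1.56e-10). It had 112 ± 1.39 counts in UNDIF and 4.61 ± 2.11 in NEUR. POU3F1 fell from 148 ± 34.0 to 4.94 ± 0.597 (limma −4.63 ± 0.20, adjusted p = 2.01e-12). Its highest mean was in UNDIF, at 417 ± 83.7, with 120 ± 25.8 in NEUR. POU3F2 had 33.0 ± 6.58 counts in UNDIF and 388 ± 60.6 in NEUR. With DMSO it had 432 ± 29.7, and with FT671 no read (limma −8.76 ± 0.19, adjusted p = 4.27e-16). Among 9 PRDM factors and their partners 3 rose and 3 fell. CBFA2T2, the co-repressor that works with PRDM14 in mouse pluripotent cells, rose from 730 ± 46.1 to 1071 ± 44.3 (limma 0.55 ± 0.08, adjusted p = 1.37e-05). Among 16 genes of H2B ubiquitination and the spindle checkpoint, the processes in which USP44 acts, 1 rose and 13 fell with FT671. CDC20, the activator that the checkpoint holds back, fell from 2115 ± 175 to 391 ± 76.4 (limma −2.45 ± 0.11, adjusted p = 3.39e-12), while USP44 itself was not called.

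By the root mean square distance between log2 profiles over the 12 libraries, the genes nearest to the median profile of the 8 were LNCPRESS1 (distance 0.33 in log2 units, Pearson r 0.997), C13orf42 (0.44, r 0.994) and LINC02751 (0.47, r 0.991). LINC00678, CDH9, IDO1, TTLL6 and HES3 followed at 0.66 to 0.76. These r values describe 12 libraries that fall into 4 groups, with UNDIF apart from the rest. LNCPRESS1, a long noncoding RNA of human embryonic stem cells, had 185 counts in UNDIF and 1 read over all 9 differentiated libraries. Of the members, PRDM14 was closest to their median profile at 0.55, and USP44 and DPPA4 were farthest at 4.16 and 4.99. With a pseudocount of 5 only 2 of the 8 nearest genes were shared, so the choice of neighbours among genes at 0 depends on the added constant.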

How the data were processed

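Polyadenylated RNA of 12 H9 libraries, 3 in each of 4 groups taken from the titles, was sequenced. Per the submitters' processing notes, STAR, HTSeq, DESeq2 and R 4.3.1 were used on hg19; parameters, annotation and strand setting are not given in the sources used here. The deposited signal was made by the authors by dividing each library's gene counts by a size factor and adding 1. After subtraction of 1, 100% of values were whole reads within 0.001 once scaled, so reads could be recovered. A deposited p-value column holds an FDR of the authors for UNDIF and NEUR, which was not used for any call. Of 47 columns, 32 were not used.

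Tests were made in R 4.3.3 with limma 3.58.1. Its input was log2 of normalized counts after adding a pseudocount of 1, with 1 mean per group over all 12 libraries, empirical Bayes variances with a trend, and Benjamini-Hochberg adjustment over 13310 genes. Genes were called at an adjusted p under 0.05. No filter was added, since the smallest gene mean was 12.2. Ratios are of group means, with exact 95% counting intervals from the recovered reads, and a group without reads is set at 3 reads. Bounds made this way leave out the counting error of the other group. Alternatives were edgeR 4.0.16 and DESeq2 1.42.0 on recovered reads, other scalings, pseudocounts and filters, a replicate block, and each library left out. In simulated counts for FT671_NEUR against DMSO_NEUR (13310 genes, 200 changed), limma recovered 95% of 2-fold and 99% of 4-fold changes with 15 false calls. Before any change, each simulated gene took its mean over all 12 libraries, 12.2 at the least. The recovery therefore says nothing about members with a few reads in both groups, nor about a comparison in which most genes differ.

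The members, lists and named genes were chosen with earlier results of these data known. Named genes are the 8 members, any gene of the pluripotency, NODAL and apelin lists, up to 3 called genes with the largest fold change with FT671 from each other list, and the 8 nearest genes. FABP7, NES, KRT8 and TDGF1P3 are named outside this rule. Lists share some genes. Promoter sequences are from RefSeq (GRCh38.p14), exon lengths and overlaps from GENCODE v29, which differ from the build of the files and were used for names, lengths and windows only.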

Additional observations from a re-analysis of the deposited data

How the results depend on the processing

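The alternatives left the direction of the FT671 value as reported for each member checked. UTF1, for which no fold is given, was not checked. The number of members higher with FT671 was 3, and 1 with DESeq2 on recovered reads. It was 2 with a pseudocount of 0.5, with library totals, with edgeR and without a trend. It was also 2 when genes averaging below 100 counts were left out and with only the groups compared. Leaving out libraries in turn gave 2 to 3. The number lower was 2, 3 with library totals, and 2 in every such leave-out. Members called between DMSO_NEUR and NEUR stayed at 0 in all 23 alternatives. APELA in DMSO_NEUR against NEUR changed sign in 3 leave-outs, at 0.0133, 0.0544 and 0.0295 without NEUR replicate 1, NEUR replicate 3 and DMSO_NEUR replicate 1 (range −0.35 to 0.0544), and was never called. Of all genes, 1 was higher in DMSO_NEUR than in NEUR; this was 0 with a pseudocount of 0.5, with edgeR, when genes averaging below 100 counts were left out and with only the groups compared, 7 with DESeq2, 2 without a trend, and 0 to 1 when libraries were left out. The 52 lower genes became 104 with DESeq2, 0 with only the groups compared and 24 to 55 when libraries were left out. Of the 8 nearest genes, 2 were shared with a pseudocount of 5. Counts for the other pluripotency list, and for all list genes pooled, stayed within 1.5 times in the alternatives run; the other lists were not recounted singly. The causes were not tested.

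No pairing of libraries by replicate number was detected. Same-numbered FT671_NEUR and DMSO_NEUR libraries correlated at 0.03, −0.04 and 0.05 in their deviations from group means. Such values cannot tell whether same-numbered libraries shared a culture or a batch. With the replicate number as a block, 3 members were higher and 2 lower with FT671, and 10 and 11 of the other pluripotency genes. Depth limits POU5F1, TDGF1, PRDM14, UTF1, VRTN and APELA most, since after differentiation each had under 70 reads over any group.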

Other observations

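PRDM14 also acts in primordial germ cells, and 6 of 10 listed germ cell genes were tested. With FT671 5 of them rose and 1 fell against DMSO by limma, where 40.2% of all genes rose and 39.7% fell. DAZL, an RNA-binding protein of germ cells, had 943 ± 102 counts in UNDIF, 0.658 ± 0.570 in NEUR, no read in DMSO_NEUR and 2.82 ± 0.607 in FT671_NEUR. TFAP2C, a factor of human germ cell specification and of trophoblast, rose from 95.7 ± 3.79 counts with DMSO to 797 ± 41.7 with FT671 (limma log2 fold change 3.05 ± 0.10, adjusted p = 6.09e-14). PRDM1, the partner repressor in that lineage, fell from 319 ± 58.5 to 146 ± 17.2 (limma −1.11 ± 0.16, adjusted p = 6.75e-06), so these genes did not move as 1 group.

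The remaining lists gave few genes or mixed directions with FT671. Of 3 mesoderm genes 1 rose and 2 fell, among them KDR, a VEGF receptor gene, which had 4226 ± 543 counts in UNDIF, 706 ± 86.8 in DMSO_NEUR and 11.3 ± 7.08 in FT671_NEUR. The 1 endoderm gene tested, CXCR4, fell from 115 ± 5.71 to 9.53 ± 2.84 counts. Of 10 apoptosis and stress genes 5 rose and 1 fell, beside the same 40.2% and 39.7% of all genes. All 10 were higher in NEUR than in UNDIF, where 40.4% of all genes were.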
